A study of Oryza sativa Japonica Group with 6 samples.

Results

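The 184 genes described here were strongly reduced in root tips of plt345 rice. They were chosen by their measured values in both genotypes from 31010 listed loci. A locus was included when its ZH11 mean was at least 50 normalized counts, its plt345 mean was at most 1/3 of that, and each plt345 library lay below each ZH11 library. One locus was set aside when the limits were drawn up. Because the difference between the genotypes chose these loci, their own levels and folds are a description and carry no test.

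RNA was sequenced from root tips about 0.8 cm long of 7-day seedlings of Oryza sativa Japonica Group. The plt345 plants were triple mutants of PLT3, PLT4 and PLT5, and the ZH11 plants were the wild type they were set against. Each genotype had 3 libraries, and all seedlings were grown untreated on Murashige and Skoog medium with a daily cycle of light and dark. The labels give neither the kind of mutation in each gene nor the number of plants in a library, and the mutated genes were not analysed here as a check of the labels.

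PLETHORA (PLT) proteins are AP2-type transcription factors. In Arabidopsis they form a gradient from the root stem cell niche, and their dose sets whether cells remain stem cells, divide or differentiate. The root tip holds the meristem, the cells that elongate behind it and the first differentiated cells. A gene can therefore be lower in a bulk sample of the tip because fewer cells express it or because each cell holds less of its RNA, and these cannot be told apart here.

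The libraries held 20759896 to 21035771 reads on genes in plt345 and 21013147 to 21309371 in ZH11. Of the listed loci, 23166 averaged 10 or more normalized counts over all libraries, and these were tested with limma on log2(value + 1), with Benjamini-Hochberg adjustment over all of them. The adjusted p was under 0.05 for 7865 loci lower in plt345 (34.0%) and for 7886 loci higher (34.0%). With reads scaled to library totals the split was 6014 lower and 9362 higher. The labels do not say whether each library had plants of its own, so p-values reflect the scatter of these 6 libraries alone, and part of it may be technical. Among marker genes, all 3 of dividing cells were lower, with summed levels of 3492 to 3710 normalized counts in plt345 and 4872 to 5035 in ZH11. All 3 of secondary-wall xylem were higher, with 3873 to 3904 in plt345 and 2247 to 2307 in ZH11. The endodermis marker CASP1, which helps lay down the Casparian strip, was lower, at 1539 to 1651 in plt345 and 2083 to 2213 in ZH11. Of the 2 root hair markers 1 was higher, and their sums of 1907 to 2029 in plt345 and 1718 to 1913 in ZH11 overlapped. Of 4 photosynthesis markers, RBCS2 and RBCS3 were left out because their symbols were not found in the reference gene table. CAB1R and CAB2R had sums of 5.87 to 13.5 in plt345 and 44.0 to 54.2 in ZH11. The difference in the sum was that of CAB1R, since CAB2R, with too few reads for a test, averaged 6.48 ± 2.23 in plt345 and 6.80 ± 2.35 in ZH11. The part of these cell types in the reductions was not tested.

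Strong reduction was rare among well-expressed loci. Of 18111 loci with a ZH11 mean of at least 50, the 184 made up 1.02%. The same limits turned round took 1418 of 19177 loci with a plt345 mean of at least 50, or 7.39%. Every one of the 184 was below ZH11 in every pairing of libraries, as the limits required, while 35.5% of all tested loci had every plt345 library below every ZH11 library. Likewise all 184 were lower with an adjusted p under 0.05 by limma, against 34.0% of all tested loci and 40.9% of those with a ZH11 mean of at least 50. All 184 were also lower by edgeR, against 33.5% of tested loci. In the authors' deposited table all 184 were lower too, against 23.1% of its 29221 loci with an adjusted p. That set is wider than the 23166 loci tested here, so the shares are not alike. Nothing is read from these counts. All 184 passed the filter on low values, which they could do through their ZH11 level.

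**Figure D1:**
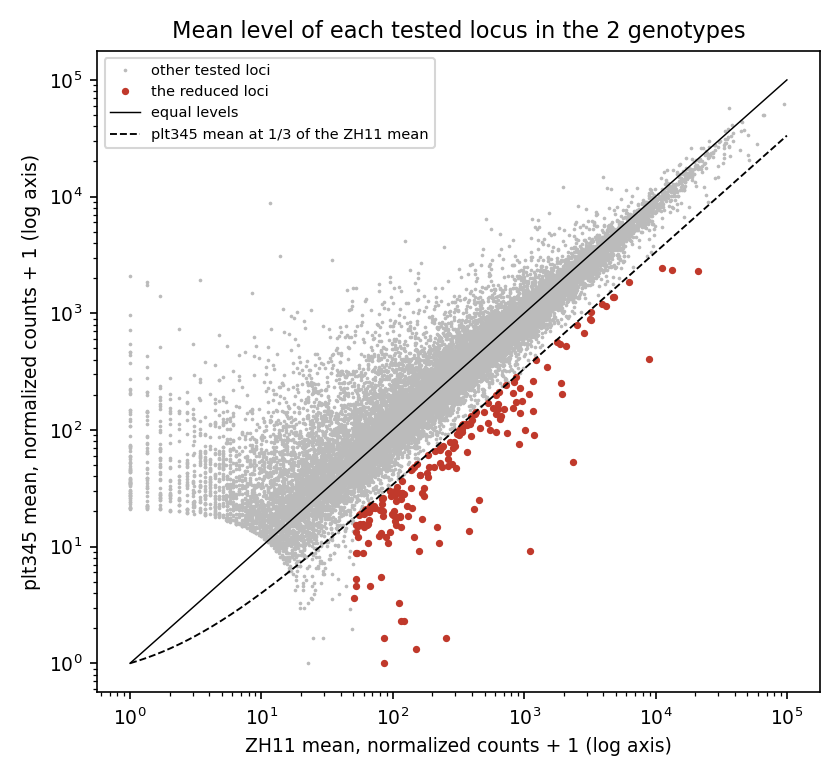
Mean normalized counts + 1 in plt345 (vertical, log axis) against ZH11 (horizontal, log axis) for each tested locus, the mean being over 3 libraries. The 184 reduced loci (red) lie under the dashed line of 1/3 of the ZH11 mean, other tested loci are grey, and the 1 locus set aside is not drawn.

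The remaining RNA was usually a substantial fraction of the ZH11 level rather than a trace. In plt345 the median of the 184 loci was 23.3% of ZH11, a median of 4.29-fold lower, and 115 of them kept more than 20%. Another 43 kept over 10% and up to 20%, 13 kept over 5% and up to 10%, 6 kept over 2% and up to 5%, and 7 kept at most 2%. The median log2 fold change was -2.07, against -0.01 for all tested loci. The smallest gap between single libraries was a lowest ZH11 library 2.03 times the highest plt345 library, and the median gap was 3.56 times.

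The loci spanned a wide range of read abundance. Their plt345 means ran from 0 to 2457 normalized counts with a median of 46.6, and their ZH11 means from 50.04 to 21155 with a median of 225.8. Normalized counts are not corrected for transcript length, so they show how many reads support a value and do not rank genes by transcript number. Within the group the median fraction kept varied little with abundance. Loci with a ZH11 mean under 100 kept a median of 23.2% in plt345, those from 100 to under 500 kept 23.7%, those from 500 to under 1000 kept 21.7%, and those of 1000 or more kept 23.5%. Over the 184 loci Spearman's rho of ZH11 mean and percent kept was 0.0756, a description over loci measured in the same 6 libraries. Because the limits capped the percent kept at every abundance, neither the medians nor rho can decide whether reduction depends on abundance. Loci kept at under 5% were found at both ends, 2 of 47 below a ZH11 mean of 100 and 3 of 28 at 1000 or more.

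Together the 184 loci took a small share of the reads. They held 0.157%, 0.154% and 0.154% of the reads in the plt345 libraries and 0.740%, 0.708% and 0.711% in the ZH11 libraries. The libraries of each genotype lay close together, and the gap to those of the other follows from the limits. The 10 loci with the highest ZH11 means held 52.7% of the group's ZH11 reads. Without those 10 the rest still held only 0.0791% to 0.0805% in plt345, against 0.338% to 0.344% in ZH11.

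At most levels replicates scattered at these loci about as much as at other loci. For ZH11 means of 50 to under 100 the median coefficient of variation over the 3 ZH11 libraries was 8.65% for 47 reduced loci and 10.7% for 2325 others, and the limit that no libraries overlap itself favours low scatter. For ZH11 means of 100 to under 500 it was 6.73% for 85 reduced loci and 6.21% for 7238 others. For plt345 means of 50 to under 200 that over the 3 plt345 libraries was 8.56% for 57 reduced loci and 8.89% for 5564 others. At plt345 means of 200 or more it was 3.91% for 29 reduced loci and 3.61% for 13527 others. The lowest plt345 library was not always the same one. Library 1 was the lowest of the plt345 libraries at 45 loci, library 2 at 65 and library 3 at 71.

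A few loci were nearly silent in plt345 while clearly expressed in ZH11. Of the 7 loci that kept at most 2%, 3 were neighbours on chromosome 10. Here and below, neighbours are nearest in the order of listed identifiers, and physical distances were not examined. LOC_Os10g18820 had no read in any plt345 library, against 88.5, 77.7 and 88.0 normalized counts in the ZH11 libraries. Taking 3 reads over the plt345 libraries as the floor, it was at least 87.0-fold lower. LOC_Os10g18870 had 1.96, 0 and 0 normalized counts in plt345, against 257, 238 and 270 in ZH11. That is 2 reads in plt345 and 750 in ZH11, a 393-fold ratio scaled for depth with a 95% exact interval of 108 to 3253. LOC_Os10g18760 had 0.981, 0.978 and 1.92 in plt345, against 113, 115 and 114 in ZH11, and was 87.8-fold lower, on 4 plt345 reads with an exact interval of 33.9 to 323. None of the 3 exceeded 2 normalized counts in any plt345 library, and none fell under 77 in any ZH11 library. Intervals and floors of this kind cover counting error only.

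The nearest tested loci on either side of these 3 kept much more of their RNA. LOC_Os10g18750, directly before them, had 0 reads in plt345 and 5 in ZH11, too few for a test. LOC_Os10g18700, the locus before that, averaged 239 ± 18.6 normalized counts in plt345 and 290 ± 8.52 in ZH11 (SD, n = 3 each), 1.21-fold lower with a limma adjusted p of 0.00326. LOC_Os10g18890, directly after them, averaged 194 ± 31.5 in plt345 and 283 ± 6.32 in ZH11, 1.46-fold lower with a limma adjusted p of 1.2e-05. Both were lower in plt345, at 82.7% and 68.6% of their ZH11 means.

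LOC_Os01g73700 joined a near-complete loss with a high ZH11 level. It had 4.90, 7.83 and 11.5 normalized counts in plt345, against 1121, 1118 and 1068 in ZH11, or 8.09 ± 3.33 and 1102 ± 29.6 (SD, n = 3 each), and was 136-fold lower. The following 2 loci were also among the 184, though less reduced. LOC_Os01g73710 had 8.82, 9.78 and 4.81 in plt345 and 54.9, 54.2 and 49.1 in ZH11, 6.76-fold lower. LOC_Os01g73720 had 153, 164 and 144 in plt345 and 851, 805 and 818 in ZH11, 5.36-fold lower. At each of the 3 the genotypes stood apart, as the limits required. Their outer neighbours were not in the group. LOC_Os01g73690 kept 77.4% of its ZH11 mean, and LOC_Os01g73730, at 760 ± 23.1 in plt345 and 1575 ± 106 in ZH11, was 2.07-fold lower with a limma adjusted p of 3.24e-16.

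Other near-silent loci lay apart from these. LOC_Os11g39490 had 0.981, 0 and 0 normalized counts in plt345, against 146, 140 and 160 in ZH11. It rested on 1 read in plt345 and 437 in ZH11, a 458-fold ratio with an exact interval of 81.8 to 18143. LOC_Os09g34950 had 0, 0.978 and 0.962 in plt345, against 83.4, 78.8 and 91.1 in ZH11, a 130-fold ratio of reads with an exact interval of 35.6 to 1080. Those intervals leave the size of both losses wide. LOC_Os12g41980 had 0.981, 2.94 and 0 in plt345 and 106, 127 and 128 in ZH11, 92.1-fold lower on 4 plt345 reads, with an exact interval of 35.8 to 342. Without plt345 library 2 it was 245-fold lower. LOC_Os02g14810 had 4.90, 0.978 and 0.962 in plt345 and 99.7, 116 and 116 in ZH11, 48.4-fold lower on 7 plt345 reads, with an exact interval of 23.3 to 122. Without plt345 library 1 it was 114-fold lower. Library 1 was the highest plt345 library at LOC_Os02g14810, and there too it was far under every ZH11 library.

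Better-measured deep reductions were seen at LOC_Os04g46820, LOC_Os01g03890, LOC_Os07g41350 and LOC_Os10g40430. LOC_Os04g46820 had 46.1, 55.8 and 54.8 normalized counts in plt345, against 2442, 2206 and 2385 in ZH11, 44.9-fold lower. LOC_Os01g03890 had 9.81, 13.7 and 14.4 in plt345, against 407, 363 and 362 in ZH11, 29.8-fold lower. LOC_Os07g41350 had 9.81, 11.7 and 7.69 in plt345, against 217, 241 and 219 in ZH11, 23.2-fold lower. In all 3 the plt345 libraries held between 30 and 161 reads together, so that their folds rest on more than stray reads. LOC_Os10g40430 had 393, 409 and 413 in plt345, against 9756, 8281 and 8858 in ZH11, 22.1-fold lower. Most members have no gene name in the sources used here and are given by locus identifier.

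**Figure D2:**
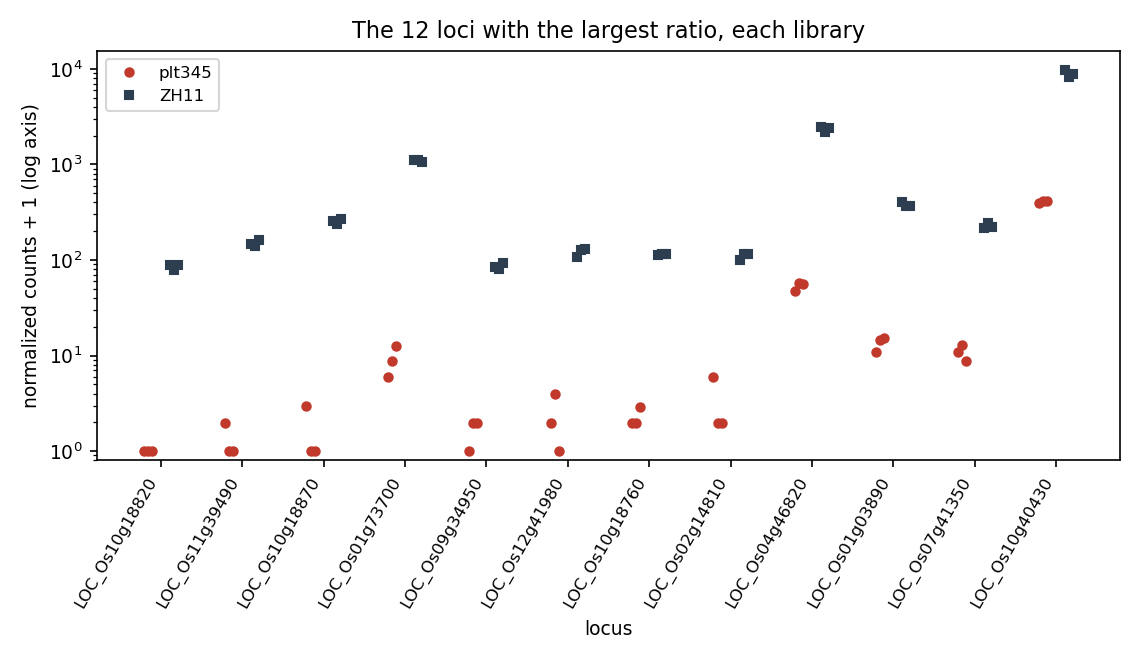
Normalized counts + 1 (vertical, log axis) in each of 3 plt345 libraries (red circles, left of each pair) and 3 ZH11 libraries (dark squares) for the 12 loci with the largest ratio of ZH11 mean to plt345 mean, ordered by the fraction kept. LOC_Os10g18820 has no read in plt345, and LOC_Os10g40430 has 393 to 413 normalized counts there. At no locus do the genotypes overlap, as the limits required.

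Of the 10 reduced loci with the highest ZH11 means, 4 lay in the stretch of chromosome 10 around LOC_Os10g40480 and the others apart. LOC_Os04g46810 had the highest ZH11 mean of the group, with 2329, 2197 and 2329 normalized counts in plt345, against 22151, 20773 and 20542 in ZH11, 9.26-fold lower. It lies directly before LOC_Os04g46820, and together these neighbours averaged 2337 normalized counts in plt345 and 23499 in ZH11. LOC_Os11g33270 averaged 1846 ± 51.2 in plt345 and 6292 ± 218 in ZH11, 3.41-fold lower. LOC_Os03g02040 averaged 1390 ± 13.9 in plt345 and 4727 ± 80.8 in ZH11, 3.40-fold lower, and LOC_Os11g02350 averaged 1189 ± 23.9 and 3938 ± 107, 3.31-fold lower. The last 3 stood near the limit of 3-fold. Their SDs were far smaller than the gaps, though the limits already required a gap between the genotypes.

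Position along the chromosome played no part in choosing the loci, and part of them lay side by side. In the order of locus identifiers 27 of the 184 (14.7%) had another reduced locus at most 2 listed loci away. They formed 11 runs, of which 7 held 2 loci, 3 held 3 and 1 held 4. Chromosome 10 held 19 reduced loci among 926 with a ZH11 mean of at least 50 (2.05%), the highest share of any chromosome, and 10 of the 19 lay in runs. Counting each run once left 12 on chromosome 10. Chromosome 1 held the most, 29 of 2575 (1.13%), and chromosome 3 had the lowest share, 12 of 2470 (0.486%). No test was made of these shares.

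The longest run, on chromosome 10, held 4 loci with many reads. LOC_Os10g40510 had 2356, 2387 and 2239 normalized counts in plt345, against 13772, 12970 and 13111 in ZH11, 5.71-fold lower. LOC_Os10g40520 had 2507, 2546 and 2319 in plt345, against 12314, 10643 and 10663 in ZH11, 4.56-fold lower. LOC_Os10g40480 had 1357, 1376 and 1378 in plt345, against 5090, 4738 and 4750 in ZH11, 3.55-fold lower. At each of these loci the plt345 libraries lay within a narrow band far below the ZH11 band. LOC_Os10g40470 had 549, 575 and 515 in plt345, against 1974, 1922 and 1741 in ZH11, 3.44-fold lower. The 4 loci summed to 6702 normalized counts in plt345 and 31229 in ZH11. LOC_Os10g40430, already described, lies 4 listed loci before this run. Reads shared between near-identical neighbouring copies cannot be assigned with certainty, and no source used here says how the authors counted such reads.

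The direction was not the same for every locus of that stretch. LOC_Os10g40530, just after the run, averaged 22725 ± 882 normalized counts in plt345 and 50161 ± 4506 in ZH11, 2.21-fold lower with a limma adjusted p of 1.71e-18. LOC_Os10g40490, inside the run, had 92.2, 77.3 and 86.5 in plt345, against 9.15, 8.18 and 11.3 in ZH11, 8.95-fold higher with a limma adjusted p of 3.92e-12. LOC_Os10g40460, just before the run, had 705, 792 and 713 in plt345, against 127, 120 and 145 in ZH11, 5.63-fold higher with a limma adjusted p of 1.69e-19. So loci higher in plt345 sat directly next to reduced ones. The genotypes overlapped on neither side, which the limits required only of the reduced loci. LOC_Os10g40540 averaged 1587 ± 34.6 in plt345 and 1514 ± 81.2 in ZH11 and did not pass the test, with a limma adjusted p of 0.145.

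**Figure D3:**
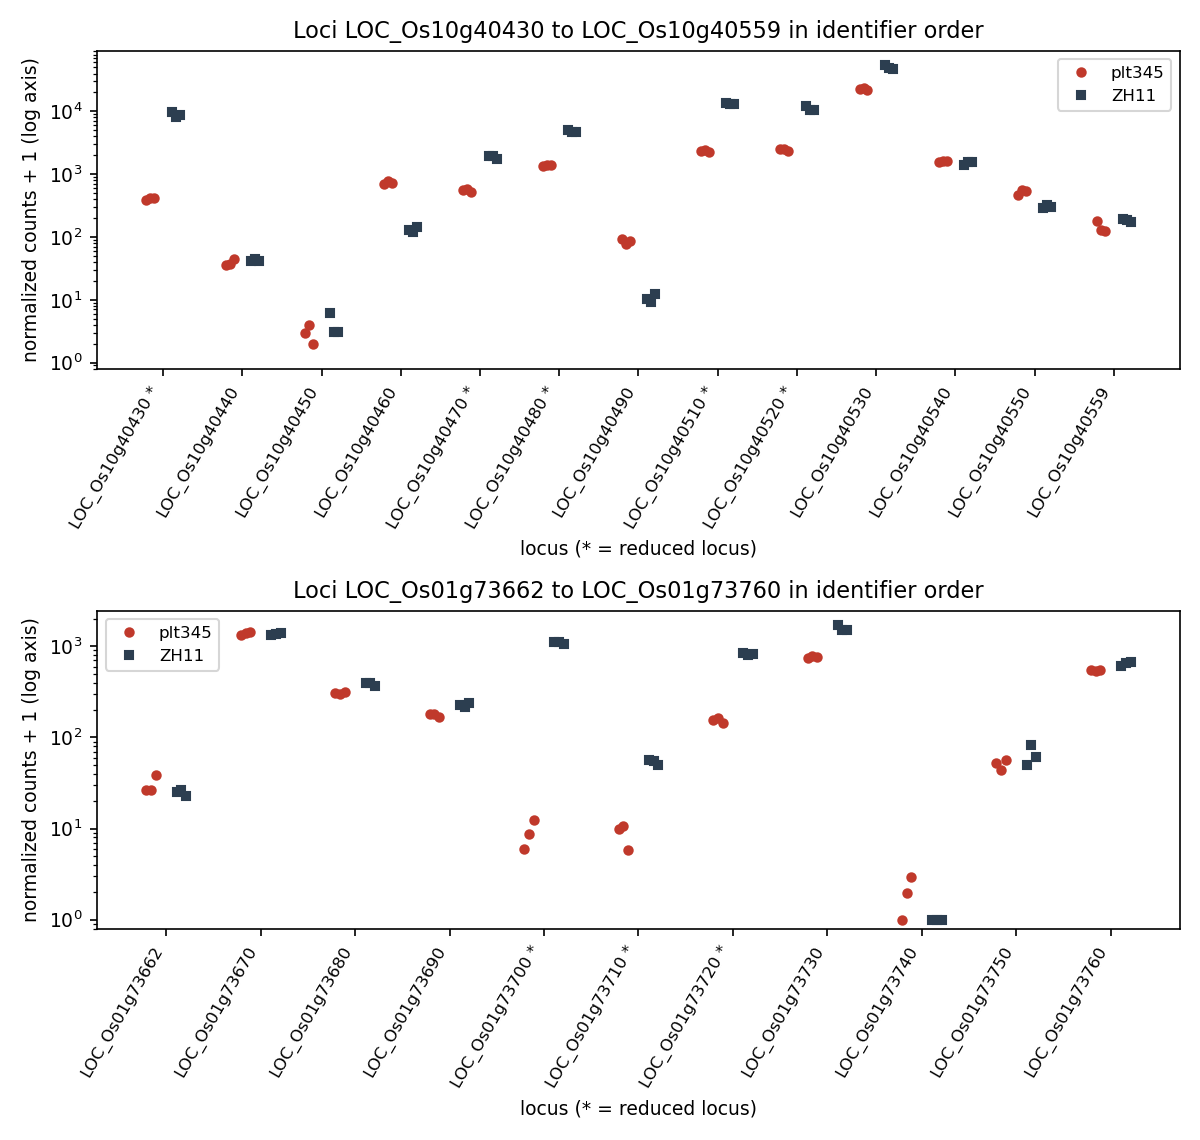
Normalized counts + 1 (vertical, log axis) in each of 3 plt345 libraries (red circles, left of each pair) and 3 ZH11 libraries (dark squares) for listed loci in identifier order around a run on chromosome 10 (top) and one on chromosome 1 (bottom), with reduced loci starred. Within the top panel LOC_Os10g40460 and LOC_Os10g40490 are higher in plt345 directly beside starred loci that are 3.44-fold to 5.71-fold lower.

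One more run on chromosome 10 was interrupted. LOC_Os10g31530 had 912, 842 and 873 normalized counts in plt345, against 3199, 3256 and 3267 in ZH11, 3.70-fold lower. LOC_Os10g31560 had 99.0, 80.2 and 89.4 in plt345, against 1210, 1194 and 1164 in ZH11, 13.3-fold lower. LOC_Os10g31620 had 521, 514 and 526 in plt345, against 2041, 2157 and 2026 in ZH11, 3.99-fold lower. Between the first and the second of them LOC_Os10g31540 kept 84.3% of its ZH11 mean, at 1080 ± 47.7 in plt345 and 1281 ± 28.9 in ZH11, with a limma adjusted p of 1.78e-05. In the runs of 2, folds were alike in some and far apart in others. LOC_Os12g31160 and LOC_Os12g31200 were 19.3-fold and 15.7-fold lower, and LOC_Os01g71130 and LOC_Os01g71140 were 6.61-fold and 5.98-fold lower. In contrast LOC_Os11g39480 was 4.31-fold lower beside the near-silent LOC_Os11g39490, and LOC_Os05g30510 was 3.18-fold lower beside LOC_Os05g30500 at 7.71-fold.

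The loci directly beside a reduced locus were not chosen by the limits. Of 237 such tested neighbours, 95 were lower by limma (40.1%, against 34.0% of all tested loci) and 61 were higher (25.7%, against 34.0%). For a reduction of at least 2-fold the count was 18 (7.59%), against 2.97% of all tested loci. All tested loci include the reduced loci, which all count as at least 2-fold lower, while the neighbours exclude them. The 2.97% is therefore higher than the share among loci outside the group, and the 34.0% lower is raised in the same way. Since loci with more reads pass the test more easily, the comparison was also made above a common floor of expression. Levels above that floor were not matched. Of 187 neighbours with a ZH11 mean of at least 50, 88 were lower (47.1%) and 13 were at least 2-fold lower (6.95%). Among all 17927 loci above that floor that were not in the group, 40.3% were lower and 1.62% were at least 2-fold lower. Neighbours of the reduced loci outside runs were counted as well, and of these 222, 88 were lower (39.6%) and 7.21% at least 2-fold lower.

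Farther away the shares lower in plt345 lay nearer to those of all tested loci. At 2 listed loci away 39.9% of 248 tested loci were lower and 5.65% at least 2-fold lower. From 3 to 10 loci away the shares lower were 34.6%, 35.7%, 30.8%, 35.4%, 36.2%, 35.6%, 35.6% and 32.2%, on both sides of the 34.0% of all tested loci. The shares at least 2-fold lower were 5.28%, 4.18%, 2.28%, 5.05%, 2.61%, 2.82%, 4.49% and 1.48%, with no even decline. The shares over all tested loci include the reduced loci and the shares by distance do not. A share by distance just under that of all tested loci is therefore not shown to lie below that of other loci outside the group. With reads scaled to library totals 33.3% of direct neighbours were lower, against 25.9% of all tested loci. No chance test was made of these shares. Whether neighbouring transcripts overlap was not tested, and no source used here says whether the library kit keeps strand.

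**Figure D4:**
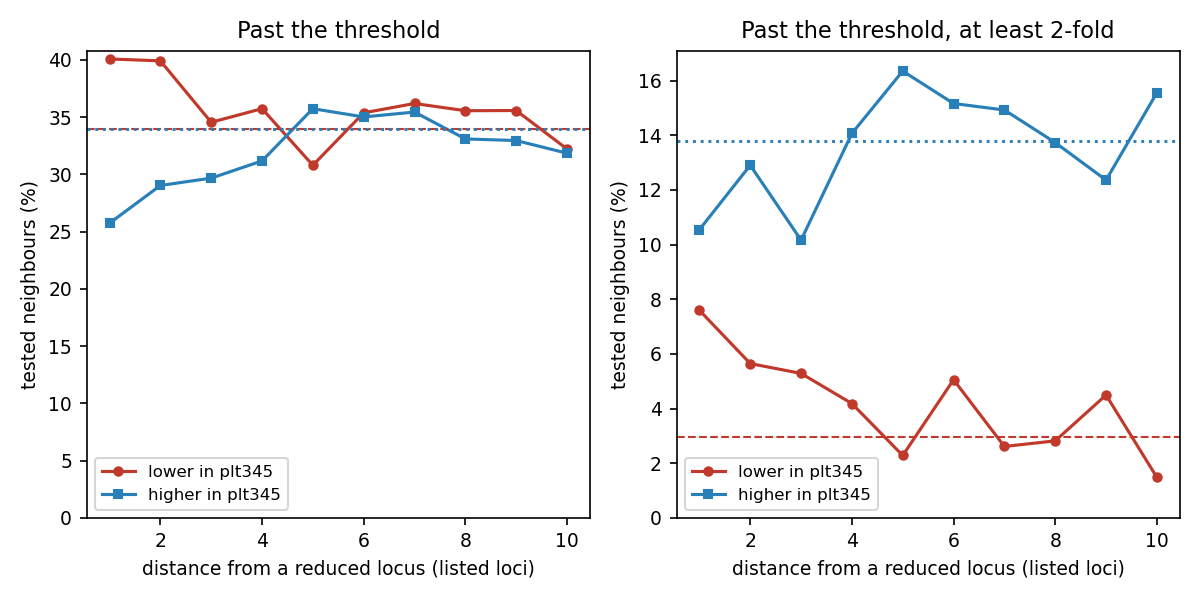
Percent of tested loci that were not in the group and were lower (red circles) or higher (blue squares) in plt345 by limma (vertical) against their distance from a reduced locus in listed loci (horizontal), for any size of change (left) and for changes of at least 2-fold (right). Dashed red and dotted blue lines give the shares over all tested loci, and the red points on the right start at 7.59% beside a line at 2.97%. Unlike the points, the lines include the reduced loci, which raises the red lines.

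Neighbours with a strong opposite response were about as frequent as such loci elsewhere. In all, 14 reduced loci had a directly adjacent locus that was higher by limma, at least 3-fold, with a plt345 mean of at least 50. These were 13 loci, or 5.49% of the 237 neighbours, against 6.12% of all tested loci.

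Of the 184, 7 were among the 202 pairs of symbol and locus that were checked, and the reference table supports these 7 by chromosome and place. That check allows a distance of 1 Mb, so it cannot tell a locus from its direct neighbours. The other reduced loci had no pair among those checked. SPX2 and GA20OX2 came from the gene lists. LPR5, MKB3, HSP24.1, PPDKB and BGLU3 were entered after values were seen, so the 7 are no survey of the group. The 7 include genes of nutrient signalling, hormone synthesis, protein folding and growth control. SPX2, at LOC_Os02g10780 on chromosome 2, encodes a phosphate sensor protein that binds PHR2, the transcription factor of phosphate starvation, when phosphate is plentiful. It had 5.88, 0.978 and 3.85 normalized counts in plt345, against 63.0, 65.5 and 70.6 in ZH11, and was 18.6-fold lower. The exact interval of that fold was 10.2 to 37.9, for counting error only. LPR5, at LOC_Os01g03630 on chromosome 1, is a multicopper oxidase of a family named in Arabidopsis for root growth at low phosphate. It had 153, 131 and 147 in plt345, against 1194, 1161 and 1154 in ZH11, 8.14-fold lower. Its neighbour LOC_Os01g03640 was also in the group, with 9.81, 5.87 and 7.69 in plt345, against 44.7, 52.2 and 58.3 in ZH11. At SPX2 the plt345 values rest on 11 reads, while at LPR5 they rest on 443.

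GA20OX2, at LOC_Os01g66100 on chromosome 1, encodes a gibberellin 20-oxidase, and its loss gave the semi-dwarf rice of the Green Revolution. It had 24.5, 13.7 and 14.4 normalized counts in plt345, against 108, 97.2 and 93.1 in ZH11, and was 5.66-fold lower. MKB3, at LOC_Os03g52320 on chromosome 3, is a GIF1-type coactivator that works with growth-regulating factors in dividing tissue. It had 48.0, 45.0 and 49.0 in plt345, against 254, 224 and 228 in ZH11, 4.97-fold lower. For both, the highest plt345 library stayed below the lowest ZH11 library, as the limits required.

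HSP24.1, at LOC_Os02g52150 on chromosome 2, is a small heat shock protein, one of the chaperones that keep unfolding proteins soluble. It had 114, 148 and 110 normalized counts in plt345, against 664, 632 and 652 in ZH11, 5.25-fold lower. PPDKB, at LOC_Os05g33570 on chromosome 5, encodes pyruvate orthophosphate dikinase, which interconverts pyruvate and phosphoenolpyruvate. It had 1141, 1123 and 1199 in plt345, against 4105, 4237 and 4161 in ZH11, 3.61-fold lower. BGLU3, at LOC_Os01g59840 on chromosome 1, belongs to the beta-glucosidases, which release sugars from glucosides. It had 14.7, 7.83 and 13.5 in plt345, against 73.2, 85.9 and 82.9 in ZH11, 6.72-fold lower. The spread over plt345 libraries was widest, relative to the mean, at SPX2, where single reads weigh most.

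**Figure D5:**
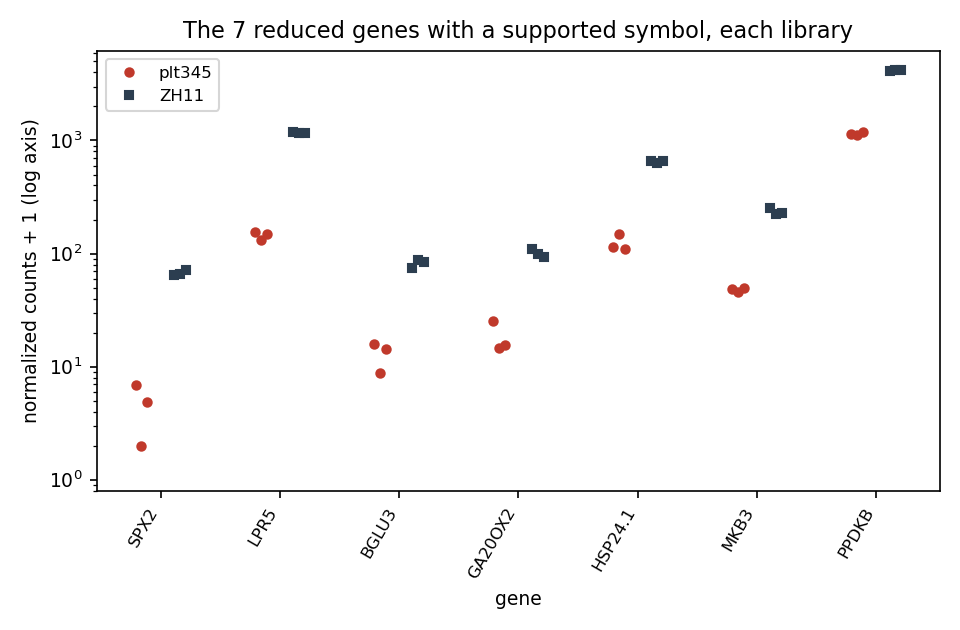
Normalized counts + 1 (vertical, log axis) in each of 3 plt345 libraries (red circles, left of each pair) and 3 ZH11 libraries (dark squares) for the 7 reduced genes with a supported symbol, ordered by the fraction kept. SPX2 kept 5.38% of its ZH11 mean and PPDKB kept 27.7%. The genotypes do not overlap at any of the 7, as the limits required.

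The phosphate list moved both ways. Of 8 tested genes in the phosphate list 2 were lower by limma, SPX2 among them, and 5 were higher, where 34.0% of all tested loci were lower and 34.0% higher. SPX1, a relative of SPX2 with the same binding role, averaged 316 ± 15.4 normalized counts in plt345 and 400 ± 15.8 in ZH11 (SD, n = 3 each), 1.27-fold lower with a limma adjusted p of 7.45e-05. PHO1;2, which loads phosphate into the xylem, averaged 1616 ± 46.8 in plt345 and 420 ± 19.8 in ZH11, 3.85-fold higher with a limma adjusted p of 1.2e-21. The phosphate transporters PT4, PT2, PT8 and PT1 were 5.0-fold, 1.92-fold, 1.77-fold and 1.26-fold higher. PHR2 had 1124, 1156 and 1147 in plt345, against 1109, 1140 and 1165 in ZH11, and did not pass, with a limma adjusted p of 0.916.

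The gibberellin list was also mixed, while no tested heat shock gene was higher by the test. Of 4 tested gibberellin genes, GA20OX2 was lower and GID1, the gibberellin receptor, was higher. GID1 averaged 2182 ± 64.4 normalized counts in plt345 and 1110 ± 107 in ZH11, 1.97-fold higher with a limma adjusted p of 3.38e-15. KS1, an early enzyme of the pathway, and SLR1, the DELLA repressor, did not pass, with limma adjusted p of 0.296 and 0.177. Of 3 tested heat shock genes, HSP17.7 was 1.56-fold lower and HSP101, a chaperone that takes apart protein aggregates, was 1.73-fold lower, with limma adjusted p of 2.43e-07 and 0.00137. HSP26.7 averaged 51.2 ± 8.24 in plt345 and 38.4 ± 5.15 in ZH11 and did not pass, with a limma adjusted p of 0.0607. HSP16.9A and HSP16.9C, also in the list, had too few reads for a test. HSP16.9A had 10.8, 5.87 and 5.77 normalized counts in plt345, against 0, 0 and 0 in ZH11. HSP16.9C had 3 reads in plt345 and 0 in ZH11.

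The gene lists held few of the reduced loci. Of 24 lists with 141 tested genes, 43 genes were lower (30.5%) and 78 higher (55.3%), where each share was 34.0% over all tested loci. Only GA20OX2 and SPX2 met the limits. In the list of low oxygen and fermentation 6 of 7 were lower. SUS1, sucrose synthase, averaged 20466 ± 333 in plt345 and 51202 ± 406 in ZH11, with a log2 fold change of -1.32 and a limma adjusted p of 2.98e-24. ADH2, alcohol dehydrogenase, averaged 2502 ± 61.8 in plt345 and 6786 ± 203 in ZH11, 2.71-fold lower with a limma adjusted p of 1.3e-22. HB1, a non-symbiotic haemoglobin, was 2.19-fold lower. Among water channels 11 of 13 were lower and 1 was higher. PIP1;3, the one that was higher and had the smallest p of the list, averaged 2838 ± 33.1 in plt345 and 571 ± 46.9 in ZH11, 4.97-fold higher with a limma adjusted p of 2.76e-23. PIP2;6 was 2.73-fold lower and PIP1;1 was 2.01-fold lower. None of the tested genes in these 2 lists reached a 3-fold reduction. The photosynthesis gene CAB1R, at 3.56 ± 1.98 in plt345 and 43.2 ± 3.11 in ZH11, was 12.2-fold lower and stayed out because its ZH11 mean was under 50.

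The boundary of the group fell within a continuous range of ratios. Between 3-fold and 3.5-fold lower there were 55 reduced loci, and 87 loci that met the other limits lay between 2.5-fold and 3-fold. Just inside, LOC_Os07g09890 kept 33.2% of its ZH11 mean, at 224, 250 and 252 normalized counts in plt345 and 718, 753 and 711 in ZH11. LOC_Os04g38810 kept 33.2% and LOC_Os04g24700 kept 33.0%. Just outside, LOC_Os09g11460 kept 33.3%, at 318, 296 and 308 in plt345 and 960, 863 and 939 in ZH11. LOC_Os05g06530 kept 33.4% and LOC_Os02g32380 also kept 33.4%. The fractions kept by these 6 loci lay close together on both sides of the limit.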

How the data were processed

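Per the labels' protocols, TRIzol-extracted total RNA was read in paired-end mode on a BGISEQ-500. Tools listed in the submitters' processing notes are DESeq2 1.38.3, featureCounts 2.0.0 and HISAT2, while the genome build is not given in the sources used here. In the deposited table the library columns hold counts normalized by size factors, a signal that is never negative. In each library 100% of the values were whole reads within 0.01 of a read. The deposited table also gives, per the file headers, the authors' log2 fold change, test statistic (a score) and p-values from DESeq2.

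The 184 loci and the gene lists were chosen with earlier results of these data known. Loci with a mean of at least 10 were tested with limma 3.58.1 in R 4.3.3 on log2(value + 1), with trend, two-sided, at a Benjamini-Hochberg adjusted p under 0.05. The pseudocount understates log2 fold changes of low genes, and folds are ratios of means. The alternatives used edgeR 4.0.16 and DESeq2 1.42.0 on the recovered reads and the authors' adjusted p. The fits were tested on simulated data.

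The reference gene table (assembly ASM3414082v1) holds no LOC_Os identifier. Of 197 pairs of symbol and locus written from rice nomenclature, 165 were supported by a gene of that symbol lying on that chromosome at most 1 Mb from the interpolated place, and 5 more pairs were entered after values were seen and were also supported. This check makes a pair plausible and does not prove it. Named are the 12 largest ratios, the 10 highest ZH11 means, supported symbols, runs of 3 or more, 3 loci on each side of the limit, and up to 3 genes of a described list with the smallest adjusted p. KS1, PHR2, SPX1, PT1, PT2, CAB2R, HSP16.9A, HSP16.9C, the loci beside runs and those in runs of 2 were added after their values were seen. Reads of near-identical, overlapping or antisense genes cannot be told apart. Between libraries of different genotypes the chi-square per gene was 53.3 to 54.8, and within a genotype it was 1.42 to 2.08, above sampling noise, so no library was treated as a copy of another.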

Additional observations from a re-analysis of the deposited data

How the results depend on the processing

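The size of the group depends on its limits. A plt345 mean of at most 1/4 of ZH11 left 105 loci, and at most 1/2 gave 477, with 78 in runs. A ZH11 mean of at least 100 left 17 loci in runs, against 27. Scaling to library totals left 156 of the 184. Leaving out 1 library in turn gave 179 to 189 loci, 25 to 31 in runs, a median log2 fold change of -2.09 to -2.06, 91 to 93 neighbours lower (95 with all libraries), 7349 to 7546 loci lower over all tested, 42 to 43 list genes lower and 76 to 79 higher, and a ratio of read shares of 0.214 to 0.219.

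Same-numbered libraries did not deviate together, with correlations of 0.0240, 0.0193 and -0.000854, so the numbers were not taken as pairs. With the replicate number as a block 7972 loci were lower, against 7865, and 98 neighbours, against 95. The 35 named reduced loci kept their direction and call in all 485 refits. Those refits reuse the libraries that chose the loci, so nothing is read from this. Of 939 refits of other named genes 924 kept theirs, 11 no longer passed the threshold, 4 newly passed it and 0 changed sign. By edgeR 94 neighbours were lower, 90 were lower in the authors' deposited table, and 85 by DESeq2 on the recovered reads, a fit added after seeing the data. Scaling to library totals moved the median log2 fold change of all tested loci by 0.0879. Depth limits the loci with 3 reads or fewer in plt345 to the intervals and the bound given for them.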
